A study of Mus musculus with 4 samples.

Results

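The Hox genes encode homeodomain transcription factors and are described here along the mouse aorta. Every gene whose symbol is Hoxa, Hoxb, Hoxc or Hoxd followed by a number from 1 to 13 was taken, matched by its Ensembl identifier, which gave 39 genes of the 27734 that all 4 libraries count. They sit in 4 clusters, with 11 genes in Hoxa, 10 in Hoxb, 9 in Hoxc and 9 in Hoxd. The number in a symbol is the paralogue group, shared by genes of the 4 clusters that descend from 1 ancestral gene. Groups 1 to 3 are called anterior (8 genes), 4 to 8 central (15 genes) and 9 to 13 posterior (16 genes).

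Cells of whole aortic tissue were profiled with a droplet assay that tags the 5′ ends of transcripts and counts unique molecular identifiers (UMIs), so that 1 UMI stands for 1 captured transcript whatever its length. Each group is a single library. The control mice were CNC-SMC-Cre;R26-tdT and the knockout mice (cKO) CNC-SMC-Cre;Smad4flox/flox;R26-tdT, all 16 to 20 weeks old, so that both genotypes carry the Cre driver, labelled for smooth muscle of cardiac neural crest, and the tdTomato reporter. Smad4, the floxed gene, encodes the shared transducer of TGF-beta and BMP signals. The aortic arch and the descending thoracic aorta were taken from each genotype, and the sources used here do not give the number of animals behind a library. With 1 library a group no difference below has a replicate check, no test was made, and every interval is a 95% interval that covers counting error alone.

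In each cluster the genes lie in order of their paralogue group, and in the embryo they are switched on in that order along the head-to-tail axis, a property called collinearity. Anterior genes reach far toward the head, and posterior genes stay further toward the tail. Adult mesenchymal cells are known to keep much of the Hox pattern of the place where they arose. Arch smooth muscle is known to descend largely from the neural crest, which migrates from the hindbrain, and descending smooth muscle from the somites beside the aorta.

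The clusters were placed with the GENCODE vM21 annotation on GRCm38. Hoxa spans chr6:52155590-52260880 on the minus strand. Hoxb spans chr11:96194316-96368256, Hoxc chr15:102921103-103036852 and Hoxd chr2:74668310-74765142, all on the plus strand. Their order on the chromosome matters for the counts, because 11 members overlap another Hox gene on the same strand. Hoxa3 spans Hoxa4, Hoxa5 and Hoxa6, Hoxc5 spans several Hoxc genes, and Hoxd4 overlaps Hoxd3. On the opposite strand 14 members overlap a gene, and Hoxa3, Hoxa4, Hoxa5, Hoxa6, Hoxd3 and Hoxd4 belong to both sets. The sources used here do not say how reads in such overlaps were assigned, so single values of these genes are uncertain.

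Upstream sequence was found for 22 of the 39 members in the RefSeq promoter table (GRCm38.p6), as 24 windows of 250 bases before a start. Shown are 4 genes that stand for the patterns described below. Hoxb4 was measured in both parts of the aorta, and Hoxa7 and Hoxb8 in smooth muscle and fibroblasts of the descending part far above those of the arch. Hoxd4 was measured in smooth muscle and fibroblasts of the control arch and in endothelium. Annotated exons were left out, so that the Hoxa7 window ends 139 bases before its start. The Hoxa7 window lies within the annotated Hoxa7 gene, and the Hoxd4 window within the annotated Hoxd3 and Hoxd4 genes. For these genes the start used is thus an internal one, and longer transcripts begin further upstream. The sequences run 5′ to 3′ on the gene's strand, with matches to TTTATG (a core bound by the caudal-type Cdx factors, which are known to switch on central Hox genes in the embryo) or TGATNNAT (the paired site of Hox and Pbx proteins) in capitals, both searched on both strands.
Hoxb4, chr11:96318017-96318266, plus strand: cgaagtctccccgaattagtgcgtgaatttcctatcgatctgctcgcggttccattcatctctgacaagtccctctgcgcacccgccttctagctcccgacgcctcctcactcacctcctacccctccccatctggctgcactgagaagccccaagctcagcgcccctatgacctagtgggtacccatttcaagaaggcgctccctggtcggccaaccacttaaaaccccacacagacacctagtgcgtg
Hoxa7, chr6:52218712-52218823, minus strand: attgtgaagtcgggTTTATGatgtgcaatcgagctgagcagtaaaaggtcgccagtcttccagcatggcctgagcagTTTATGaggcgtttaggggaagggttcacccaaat
Hoxb8, chr11:96281655-96281904, plus strand: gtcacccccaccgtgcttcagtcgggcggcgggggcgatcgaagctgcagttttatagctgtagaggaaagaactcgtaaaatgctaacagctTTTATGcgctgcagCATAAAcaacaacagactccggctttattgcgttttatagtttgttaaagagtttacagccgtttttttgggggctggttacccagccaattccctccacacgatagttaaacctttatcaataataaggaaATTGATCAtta
Hoxd4, chr2:74721728-74721977, plus strand: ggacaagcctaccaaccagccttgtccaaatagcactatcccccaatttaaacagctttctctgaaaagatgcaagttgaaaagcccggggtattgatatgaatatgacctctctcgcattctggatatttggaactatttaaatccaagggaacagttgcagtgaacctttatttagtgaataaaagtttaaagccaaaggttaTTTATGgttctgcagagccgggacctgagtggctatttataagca
TTTATG matched at 2 places in Hoxa7, at 2 in Hoxb8 and at 1 in Hoxd4, and TGATNNAT at 1 place in Hoxb8, 11 to 4 bases before the start. The motifs can overlap each other, and in these windows they did not. TTTATG was found in 5 of the 22 members with a window (Hoxa7, Hoxb8, Hoxd3, Hoxd4 and Hoxd11) and in 10.8% of all 32851 windows of the table, TGATNNAT in 4 members (Hoxa2, Hoxb1, Hoxb8 and Hoxd11) and in 7.68% of all windows. The member windows held a median of 12.5 CpG dinucleotides (lowest 2, highest 35), against 6.0 over the whole table.

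Cell classes were set by marker gates, which ask for a summed level of a class's own markers and for no passing of another gate. After filtering, 4989 to 8046 cells a library were kept, with medians of 5762 to 9959 UMIs. Smooth muscle held 3626 cells in the control arch, 1087 in the cKO arch, 1192 in the control descending and 1435 in the cKO descending library. Fibroblasts numbered 1728, 410, 963 and 1210 in the same order, endothelial cells 626, 136, 637 and 954, and mesothelial cells 262, 5, 275 and 278, so that the mesothelium of the cKO arch is not described. All 10 smooth muscle markers were detected in the smooth muscle gate of each library, at 547 to 591 UMIs per 10000, where fibroblast markers summed to 17.7 to 29.4. Between 148 and 354 smooth muscle cells a library lay within 25% of the gate's threshold. Between 11.3 and 21.9% of a library's cells passed no gate. Pairs of libraries shared 66 to 99 barcodes. The cKO arch library was counted against another annotation, with 28693 features in place of 32285. Ddx3y, a Y-linked gene, was found at 14.2 CPM (UMIs of the gene per 1000000 UMIs of all shared genes) in the control arch and at 0 in the other 3 libraries, so the sex make-up differed between the arch libraries and also between the control arch and the control descending library. It cannot be told apart from genotype in the first case or from place in the second, and the other annotation of the cKO arch library enters every comparison with that library. Smad4, the targeted gene, stood at 65.5 CPM over all kept cells of the cKO arch, 77.1 in the control arch, 90.9 in the cKO descending and 85.9 in the control descending library. Whether the counted 5′ end lies in the deleted part was not tested, and the Cre driver is not active in every cell, so these values do not check the labels.

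Leukocytes, which arise outside the vessel wall, served as the measure of free RNA. The 39 Hox genes summed to 16.3 to 22.8 CPM in them, against 137 to 493 CPM in the smooth muscle, fibroblast, endothelial and mesothelial gates. Hoxb4, a gene of blood stem cells as well, was the highest Hox gene in leukocytes of all 4 libraries, at 4.63 to 7.46 CPM.

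**Figure D1:**
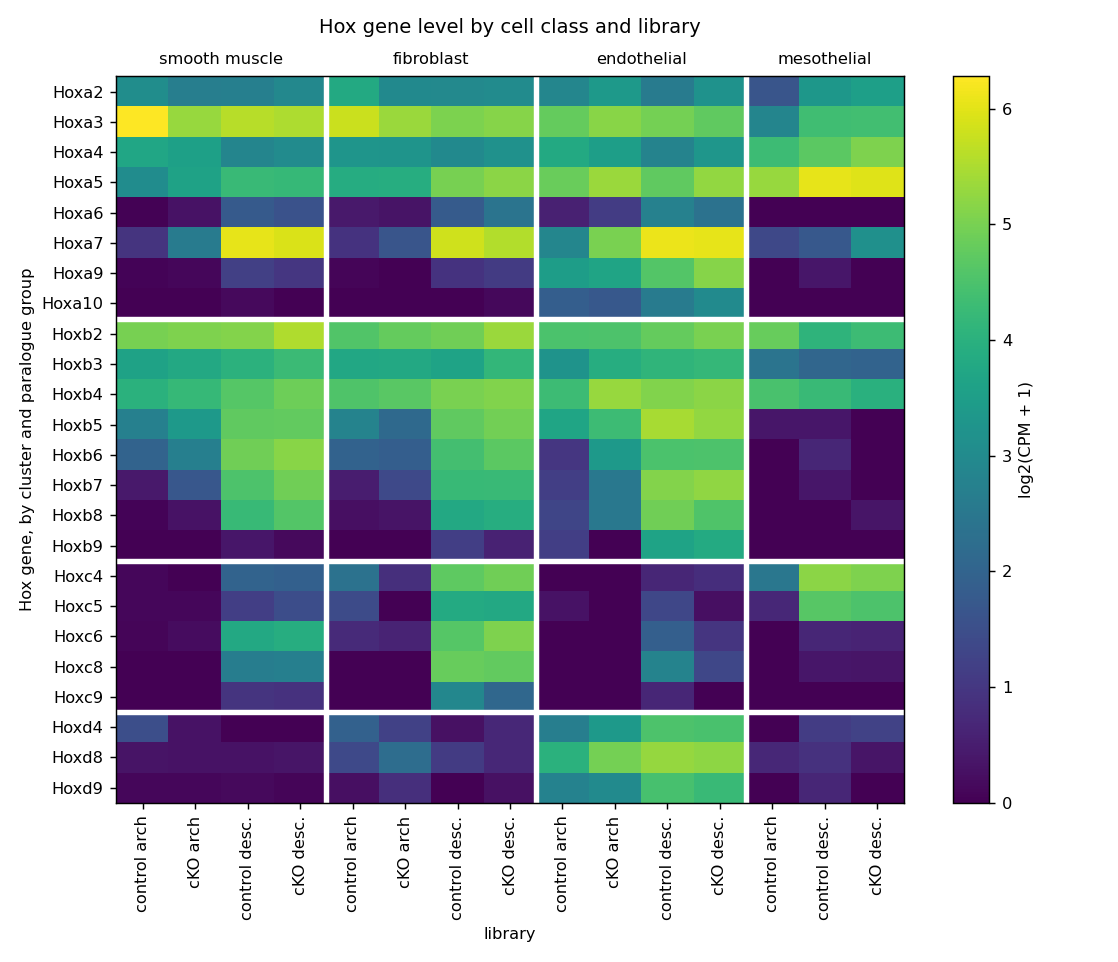
Level of 24 Hox genes with at least 50 UMIs, as log2(CPM + 1), by cell class and library (columns) and by cluster and paralogue group (rows). The Hoxb7, Hoxb8, Hoxc6 and Hoxc8 rows are dark in the arch columns and light in the descending columns of smooth muscle and fibroblasts, and the Hoxd rows are brightest in endothelium.

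In smooth muscle of the control mice the arch and the descending aorta shared the anterior genes and parted from paralogue group 5 on. Summed over anterior genes, the level was 128 CPM in the arch and 104 CPM in the descending aorta, a log2 ratio of 0.31 (0.23 to 0.39). The central genes summed to 46.8 CPM in the arch and 233 CPM in the descending aorta, a log2 ratio of -2.32 (-2.39 to -2.24). Posterior genes were scarce in both parts, with 0.218 and 2.94 CPM.

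The step between arch and descending grew from group 4 to group 7. The log2 ratio of the summed level, arch over descending, was -0.02 (-0.15 to 0.11) for group 2, 0.49 (0.39 to 0.59) for group 3 and -0.17 (-0.31 to -0.03) for group 4. It was -1.80 (-1.95 to -1.65) for group 5, -3.86 (-4.11 to -3.61) for group 6 and -6.11 (-6.49 to -5.77) for group 7. Group 8 stood at -6.28 (-7.15 to -5.61), an interval that overlaps that of group 7, and group 9 at -4.49 (-6.11 to -3.35) on 6 UMIs in the arch.

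**Figure D2:**
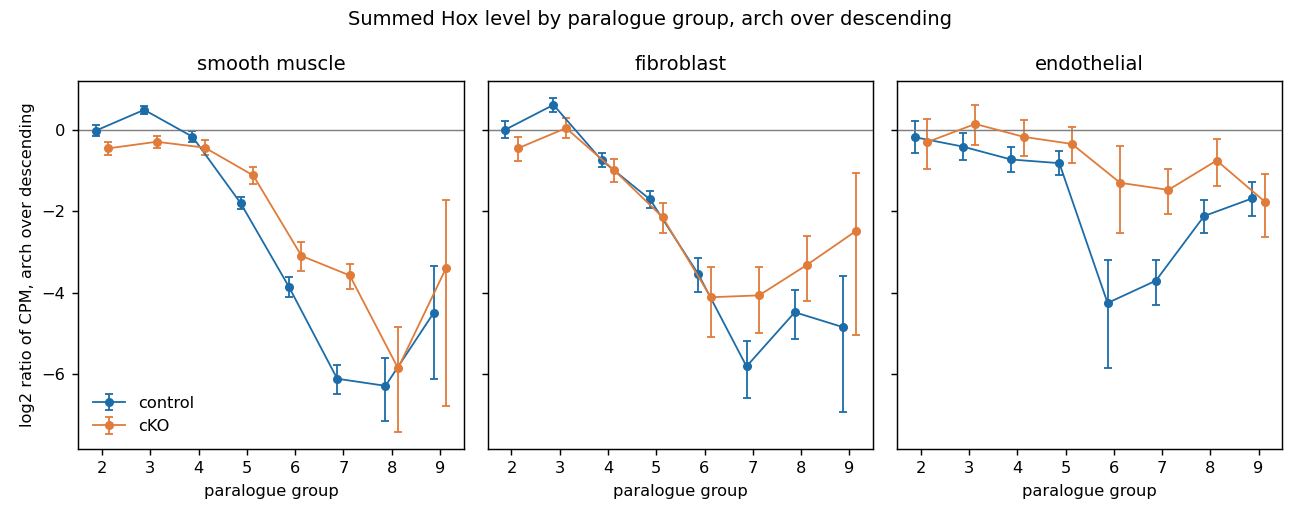
Log2 ratio of the summed level of each paralogue group, arch over descending, in smooth muscle, fibroblasts and endothelium of control (blue) and cKO (orange) libraries. Points are ratios, bars 95% counting intervals, and groups 2 to 9 are shown where both libraries together hold at least 20 UMIs. In control smooth muscle groups 2 to 4 lie between -0.17 and 0.49, and groups 7 and 8 at -6.11 and -6.28.

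Hoxa7 carried the largest difference in CPM of any member between control arch and descending smooth muscle. It stood at 65.3 CPM in control descending and 59.6 CPM in cKO descending smooth muscle, and at 0.910 CPM in the control arch and 5.15 CPM in the cKO arch. Both descending libraries were thus far above both arch libraries, and the control ratio was 71.0-fold, a log2 ratio of -6.15 (-6.60 to -5.75). The control arch value rests on 50 UMIs in 30 of 3626 cells and lay below the 4.24 CPM of leukocytes in the same library. Those leukocytes also stood above the fibroblasts of that library (0.879 CPM), so for Hoxa7 they are not a plain measure of free RNA.

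The other Hoxa genes did not all follow Hoxa7. Hoxa3 was the highest Hox gene of arch smooth muscle, with 76.6 CPM in the control arch, 38.4 in the cKO arch, 47.4 in the control descending and 44.1 in the cKO descending library. The control arch was the high library, and the other 3 lay close together. Hoxa4 also stood higher in the control arch than in the control descending aorta, with 12.2 against 6.24 CPM, a log2 ratio of 0.96 (0.67 to 1.28). Hoxa5, which is known for its part in lung development, was 2.49-fold lower in the arch, with 7.24 against 18.0 CPM. Hoxa2 (7.48 and 5.57 CPM) differed by under 2-fold. Hoxa6 counted 1 UMI in the control arch and 40 in the control descending library, and Hoxa9 2 and 21.

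Along the Hoxb cluster the control descending level stayed between 15.4 and 33.5 CPM from group 2 to group 8, while from Hoxb4 on each gene stood lower in the control arch than the one before it. Control descending smooth muscle had 33.5 CPM of Hoxb2, 15.4 of Hoxb3, 23.7 of Hoxb4, 25.9 of Hoxb5, 29.2 of Hoxb6, 22.0 of Hoxb7 and 17.8 of Hoxb8. In the control arch the same genes stood at 31.0, 11.4, 15.1, 5.62, 2.98, 0.346 and 0.0364 CPM. The log2 ratios went from -0.11 (-0.25 to 0.03) for Hoxb2 to -2.20 (-2.42 to -1.99) for Hoxb5, -3.29 (-3.55 to -3.03) for Hoxb6, -5.96 (-6.74 to -5.33) for Hoxb7 and -8.61 (-11.99 to -7.07) for Hoxb8, the last on 2 UMIs in the arch. Hoxb9, the next gene outward, counted 0 and 5 UMIs.

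Hoxc genes were found in descending smooth muscle and hardly at all in the arch. The cluster summed to 23.4 CPM in the control descending, 25.3 in the cKO descending, 0.237 in the control arch and 0.234 in the cKO arch library, on 13 and 3 UMIs in the arch. Hoxc6 was its highest gene, with 12.7 CPM in the control descending, 14.2 in the cKO descending, 0.0546 in the control arch and 0.156 in the cKO arch library. Hoxc8 counted 0 UMIs in both arch libraries and 87 in control descending smooth muscle. Against a floor of 3 counts in the control arch library, it was 97.5-fold lower there. That value leaves out the counting error of the descending count.

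Hoxd4 was the exception in smooth muscle. It counted 102 UMIs in the control arch (1.86 CPM), 3 in the cKO arch (0.234 CPM) and 0 in both descending libraries. Against a floor of 3 counts in the control descending library, the control arch was 10.1-fold higher. That value leaves out the counting error of the arch count. Leukocytes of the control arch held 0.193 CPM. The control arch was thus the only one of the 4 libraries with more than 3 UMIs of it in smooth muscle.

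A difference of at least 2-fold was called for genes that reached 20 UMIs when both libraries of a comparison were added. In smooth muscle 20 members reached that minimum, and 12 of them (60%) were lower in the arch, against 5.28% of all genes. They are Hoxa5, Hoxa6, Hoxa7, Hoxa9, Hoxb5, Hoxb6, Hoxb7, Hoxb8, Hoxc4, Hoxc5, Hoxc6 and Hoxc8. Of the 12, 8 had under 20 UMIs in the arch and reached the minimum only with UMIs of the descending library. The calls of those 8 are therefore not independent of the minimum. Hoxd4 alone was higher in the arch, 5% of the 20 beside 4.27% of all genes, and it reached the minimum through the arch library. The members' median log2 ratio was -2.74, against -0.09 over all genes.

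The share of smooth muscle cells with a UMI was taken for the central genes and for groups 6 to 9. After thinning each cell to 3000 UMIs, a UMI of any central gene was found in 49.7% (46.7 to 52.7) of control descending, 53.0% (50.3 to 55.6) of cKO descending, 12.4% (11.4 to 13.6) of control arch and 16.6% (14.4 to 19.1) of cKO arch cells, against 3.12 to 5.26% of leukocytes. Both arch shares of the central genes thus lay above the leukocytes. For groups 6 to 9 alone, 37.6% (34.8 to 40.6) of control descending cells and 40.3% (37.6 to 42.9) of cKO descending cells had a UMI of groups 6 to 9, against 1.38% (1.02 to 1.83) in the control arch and 4.11% (2.98 to 5.51) in the cKO arch. Leukocytes had 2.22% in the control descending, 2.21% in the cKO descending, 1.77% in the control arch and 0.664% in the cKO arch. For these groups the control arch share lay at the leukocyte level, and the cKO arch share above it. Without thinning, Hoxa7 gave 22 of the 29 UMIs of these groups in control arch leukocytes, so they are not a plain measure of free RNA here. Control arch smooth muscle and leukocytes had 0.910 and 4.24 CPM of Hoxa7, but 2.98 and 0.579 CPM of Hoxb6. Without thinning the smooth muscle shares of groups 6 to 9 were 75.3, 75.5, 4.94 and 9.38%, at median depths of 13378, 11738, 14099 and 10784 UMIs, and the leukocyte shares 5.35, 4.69, 3.04 and 1.15%, at 6638, 5426, 4886.5 and 4164 UMIs. Thinning left out the cells with under 3000 UMIs, 84, 81, 152 and 65 smooth muscle cells and 123, 130, 226 and 834 leukocytes in the same order.

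**Figure D3:**
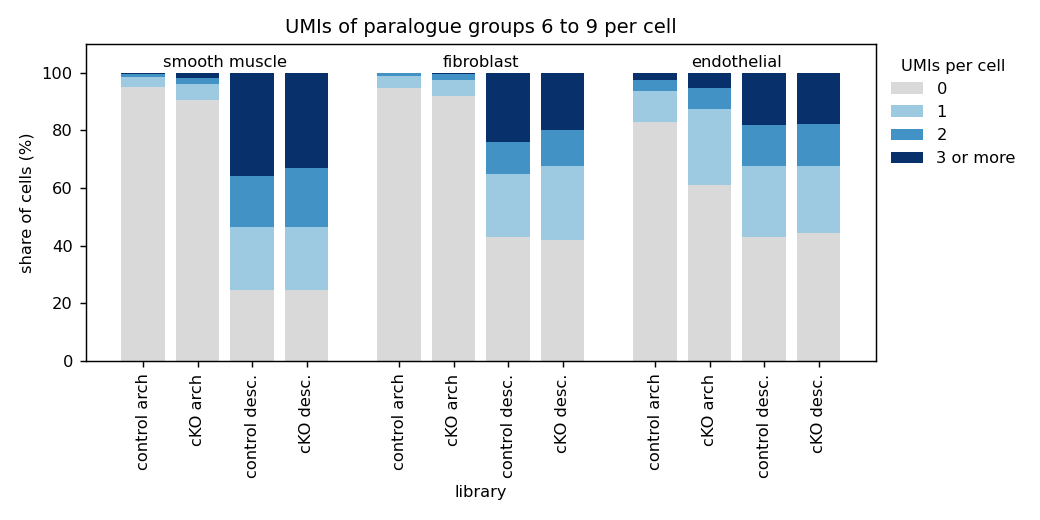
Share of cells with 0, 1, 2 or at least 3 UMIs of paralogue groups 6 to 9, without thinning, by class and library. In smooth muscle 36.0% of control descending cells hold at least 3, and 0.524% of control arch cells do.

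Fibroblasts of the control mice, which make the collagen-rich outer layer, showed a like order of paralogue groups. Their anterior genes summed to 103 CPM in the arch and 80.6 CPM in the descending aorta, and their central genes to 66.4 and 295 CPM, a log2 ratio of -2.15 (-2.26 to -2.05). By group the log2 ratio was 0.61 (0.44 to 0.78) for group 3, -0.75 (-0.92 to -0.58) for group 4, -1.71 (-1.91 to -1.51) for group 5, -3.54 (-3.98 to -3.15) for group 6 and -5.81 (-6.58 to -5.19) for group 7. Hoxa7 was again the highest descending gene, at 55.9 CPM in the control descending, 46.2 in the cKO descending, 0.879 in the control arch and 2.12 in the cKO arch library.

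The Hoxc cluster set fibroblasts apart from smooth muscle. It summed to 96.9 CPM in control descending fibroblasts, above control descending smooth muscle by a log2 ratio of 2.05 (1.88 to 2.23), while Hoxa differed by -0.11 (-0.21 to -0.01) and Hoxb by -0.16 (-0.26 to -0.07). Hoxc8 stood at 27.4 CPM in control descending and 26.2 CPM in cKO descending fibroblasts and counted 0 UMIs in both arch libraries. Hoxc4 stood at 25.6 CPM in the control descending, 29.0 in the cKO descending, 4.19 in the control arch and 0.797 in the cKO arch library. Fibroblast and smooth muscle levels in the control descending library differed by a log2 ratio of 3.08 (2.64 to 3.57) for Hoxc4, 3.40 (2.74 to 4.19) for Hoxc5, 0.88 (0.60 to 1.17) for Hoxc6, 2.36 (2.01 to 2.73) for Hoxc8 and 2.80 (2.00 to 3.76) for Hoxc9. Hoxc6 was thus the gene at which the classes lay closest.

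Of 21 members with at least 20 UMIs in the control fibroblasts, 12 (57.1%) were lower in the arch, against 4.05% of all genes, and 7 of these 12 had under 20 UMIs there. They are Hoxa5, Hoxa6, Hoxa7, Hoxb5 to Hoxb8, Hoxc4 to Hoxc6, Hoxc8 and Hoxc9. Hoxd4 was higher in the arch, with 42 UMIs against 2 and a log2 ratio of 3.35 (1.71 to 6.75), 1 member of 21 beside 5.44% of all genes. Hoxa2 (13.05 and 6.76 CPM) and Hoxa3 (53.5 and 32.1 CPM) also stood higher in the arch, by under 2-fold.

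Endothelial cells, the inner lining, had Hoxd genes and posterior genes in both parts of the aorta. Hoxd summed to 27.2 CPM in control arch, 46.7 in cKO arch, 83.0 in control descending and 80.2 in cKO descending endothelium, against at most 6.11 CPM in any library of smooth muscle or fibroblasts. Posterior genes summed to 20.1 CPM in the control arch and 62.8 CPM in the control descending library, where smooth muscle had 0.218 and 2.94. Hoxc counted 1 UMI in the control arch and 0 in the cKO arch, and stood at 11.5 CPM (8.12 to 15.8) in the control descending and 3.41 CPM (2.02 to 5.38) in the cKO descending library, where leukocytes had 2.35 and 1.78 CPM.

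Hoxa9, known from endothelial and blood development, stood at 10.3 CPM in the control arch, 11.7 in the cKO arch, 23.3 in the control descending and 34.2 in the cKO descending library. In control descending cells it was higher than in smooth muscle by a log2 ratio of 4.15 (3.47 to 4.95). Hoxd8 stood at 15.2, 30.3, 37.7 and 36.1 CPM in the same order, and the control arch was its low library. Beside Hoxa9, the posterior genes with at least 50 UMIs over the 4 classes were Hoxd9, Hoxa10, Hoxb9 and Hoxc9. Hoxd9 stood at 5.89, 7.0, 20.8 and 18.0 CPM, Hoxa10 at 2.70, 2.33, 5.13 and 7.0 CPM, and Hoxb9 at 1.23, 0, 11.5 and 13.2 CPM. Hoxc9 counted 2 UMIs in control descending endothelium and 0 in that of the control arch, cKO arch and cKO descending libraries. A count of 0 allows up to 3.50 CPM in the endothelium of the cKO arch. Hoxd4 followed the opposite course from that in smooth muscle and fibroblasts, with 5.40 CPM in the control arch, 9.33 in the cKO arch, 22.0 in the control descending and 21.2 in the cKO descending library, a control log2 ratio of -2.01 (-2.79 to -1.33).

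Central genes were lower in the arch than in the descending aorta in endothelium too. They summed to 103 CPM in the control arch and 336 CPM in the control descending library, a log2 ratio of -1.71 (-1.87 to -1.54), beside -2.32 in smooth muscle and -2.15 in fibroblasts. The difference between these classes was not tested. Hoxa7 stood at 6.38 CPM in the control arch and 66.7 CPM in the control descending library, and at 31.5 and 65.3 CPM in the cKO arch and descending libraries. Hoxa5 differed little, with 27.7 and 26.0 CPM in the control arch and descending cells, where it had differed by 2.49-fold in smooth muscle. Of 20 members with at least 20 UMIs, 12 (60%) were lower in the control arch, against 5.78% of all genes, and 6 of these had under 20 UMIs in the arch. They are Hoxa6, Hoxa7, Hoxa9, Hoxb5 to Hoxb9, Hoxc8, Hoxd4, Hoxd8 and Hoxd9. Hoxa4 alone was higher, with 53 against 20 UMIs, 5% of the members beside 6.30% of all genes.

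In these endothelial cells the sums of smooth muscle markers (16.0 and 14.6 per 10000 UMIs in the control arch and descending cells) were alike, but fibroblast markers differed (16.1 and 4.89), all 10 of each list being detected in both. The part of those in the endothelial Hox values was not tested.

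Mesothelial cells, the outer lining of the tissue, had a code of Hoxa4, Hoxa5, Hoxb2, Hoxb4 and, in the descending part, Hoxa3, Hoxc4 and Hoxc5. Hoxa5 was their highest gene, at 38.8 CPM in the control arch, 65.4 in the control descending and 61.2 in the cKO descending library. Hoxb5 to Hoxb9 summed to almost nothing, with no more than 2 UMIs of any of them in a library, although smooth muscle and fibroblasts of the descending libraries had each at 12.9 to 34.8 CPM for Hoxb5 to Hoxb8. Central genes summed to 86.5 CPM in the control arch and 175 CPM in the control descending library, a log2 ratio of -1.01 (-1.22 to -0.81).

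Hoxc4 and Hoxc5 were the mesothelial genes that differed most between the parts. Hoxc4 stood at 4.65 CPM in the control arch, 35.6 in the control descending and 32.5 in the cKO descending library, and Hoxc5 at 0.620, 24.2 and 21.9 CPM. Hoxc6 counted no more than 2 UMIs and Hoxc8 1 UMI in a library, where descending fibroblasts had 23.5 to 32.7 CPM of each. Fibroblast markers summed to 88.9 per 10000 UMIs in the mesothelial gate of the control arch, 94.1 in that of the cKO descending and 145 in that of the control descending library, and their part in the Hoxc4 and Hoxc5 levels was not tested. Of 10 members with at least 20 UMIs, 4 (Hoxa2, Hoxa3, Hoxc4 and Hoxc5, 40%) were lower in the control arch, against 5.52% of all genes, and 3 of these had under 20 UMIs in the arch. A further 1 of the 10 (10%) was higher in the control arch, against 2.94% of all genes. In the control libraries Hoxa3 thus stood lower in arch mesothelium (6.20 against 19.3 CPM) and higher in arch smooth muscle and fibroblasts. Its cKO arch and cKO descending levels were 38.4 and 44.1 CPM in smooth muscle and 39.6 and 34.4 CPM in fibroblasts.

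**Figure D4:**
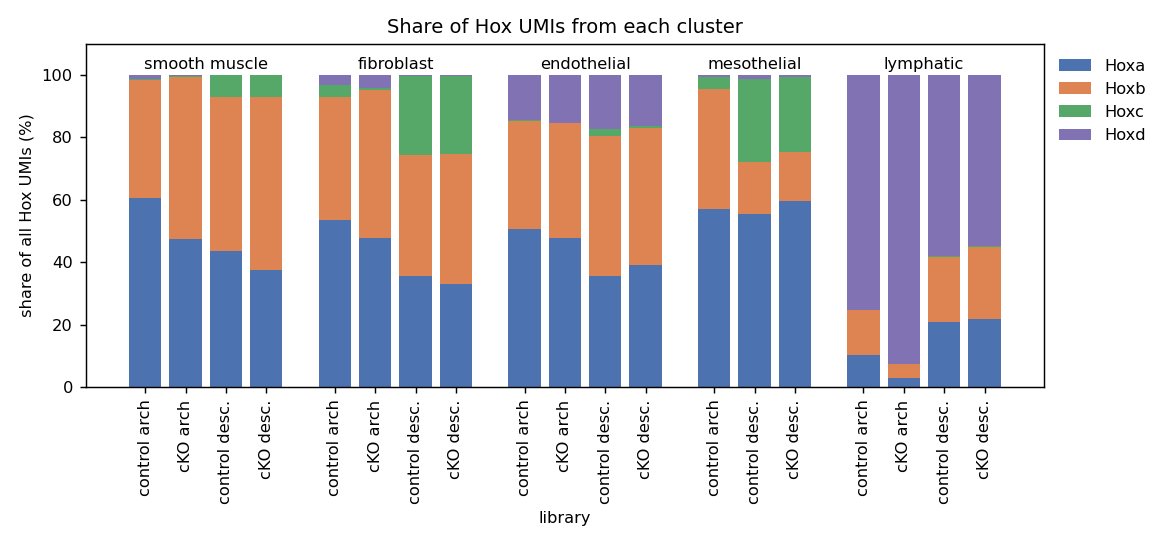
Share of all Hox UMIs that each of the 4 clusters contributed, by class and library, stacked to 100%. Hoxc takes 25.2% of the Hox UMIs of control descending fibroblasts and 6.88% of those of control descending smooth muscle, and Hoxd takes 54.8 to 92.6% of those of lymphatic cells.

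The make-up by cluster followed class and place. In control smooth muscle Hoxa gave 60.6% of the Hox UMIs of the arch and 43.6% of those of the descending aorta, and Hoxb 37.9 and 49.4%. Hoxc gave 3.85 and 25.2% in control fibroblasts and 3.84 and 26.6% in control mesothelium. In endothelium Hoxd gave 14.5 and 17.3%, while the total of all Hox genes was 188 and 480 CPM.

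Lymphatic endothelial cells, 36 to 73 a library, were rich in Hoxd8 and Hoxd9 in every library. Hoxd8 stood at 116 CPM in the control arch, 106 in the cKO arch, 148 in the control descending and 115.5 in the cKO descending library, and Hoxd9 at 101, 71.8, 146 and 115 CPM. In the control arch Hoxd8 was above blood vessel endothelium by a log2 ratio of 2.93 (2.45 to 3.42) and Hoxd9 by 4.08 (3.43 to 4.82). Hoxa7 of lymphatic cells was higher in both descending libraries, with 12.5, 3.42, 75.4 and 77.3 CPM in the same order. The cKO arch value lay below 10.3 CPM, the level that 3 UMIs give in its 36 cells. Pericytes, of which the arch libraries held 2 and 11 cells and are not described, numbered 43 in the control and 45 in the cKO descending library. Hoxc gave 34.0 and 36.6% of their Hox UMIs, with 213 and 208 CPM of 625 and 568 CPM, led by Hoxc4 at 68.8 and 89.0 CPM. Schwann cells, the glia of peripheral nerves, numbered 48 in the control arch, 44 in the control descending and 68 in the cKO descending library and held 24, 32 and 39 Hox UMIs. Their central genes summed to 55.5 CPM (27.7 to 99.3), 120 CPM (79.0 to 174) and 113.5 CPM (76.0 to 163), and Hoxd8 was the highest gene of both descending libraries, at 40.0 and 39.1 CPM.

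The cKO libraries repeated the difference between arch and descending aorta, using other mice. In smooth muscle the central sum was 63.3 CPM in the cKO arch and 253 CPM in the cKO descending library, a log2 ratio of -2.00 (-2.11 to -1.89). All genes carry a median shift of -0.17 in this comparison. Of 18 members with at least 20 UMIs, 10 (55.6%) were lower in the arch, against 9.01% of all genes, 6 of them with under 20 UMIs there, and 0 were higher, against 4.56%. The 10 are the 12 of the control mice without Hoxa5 and Hoxa9. In fibroblasts 12 of 20 (60%) were lower, against 9.41%, 11 of them with under 20 UMIs in the arch, and Hoxd8 alone was higher, 5% beside 6.60%. In endothelium, on 136 cells of the cKO arch, 10 of 19 (52.6%) were lower, against 9.69%, 9 of them with under 20 UMIs in the arch, and 0 were higher, against 4.46%. The central log2 ratio was -2.30 (-2.50 to -2.11) in fibroblasts and -0.73 (-0.97 to -0.51) in endothelium.

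Between genotypes the descending Hox genes differed by under 2-fold with few exceptions. These comparisons share their libraries with those above. In descending smooth muscle 0 of 20 members differed by 2-fold between cKO and control, against 2.30% of all genes, and the central log2 ratio was 0.12 (0.06 to 0.18). The largest was Hoxc5, at 0.53 (-0.32 to 1.43), and Hoxb2, Hoxb7 and Hoxb8 stood at 0.43 (0.27 to 0.59), 0.41 (0.21 to 0.61) and 0.39 (0.17 to 0.62). In descending fibroblasts 0 of 19 differed, against 2.97%, although Hoxc9 lay close, at -0.97 (-1.65 to -0.34). In endothelium 1 of 21 (Hoxc8, 8 cKO and 20 control UMIs), against 3.96%, and in mesothelium 1 of 11 (Hoxa7, 29 and 8 UMIs), against 4.74%. The central log2 ratios were 0.10 (0.02 to 0.17), -0.02 (-0.13 to 0.09) and -0.01 (-0.17 to 0.16) in these classes. An interval of this kind leaves out the spread between animals, so equal levels are not shown.

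**Figure D5:**
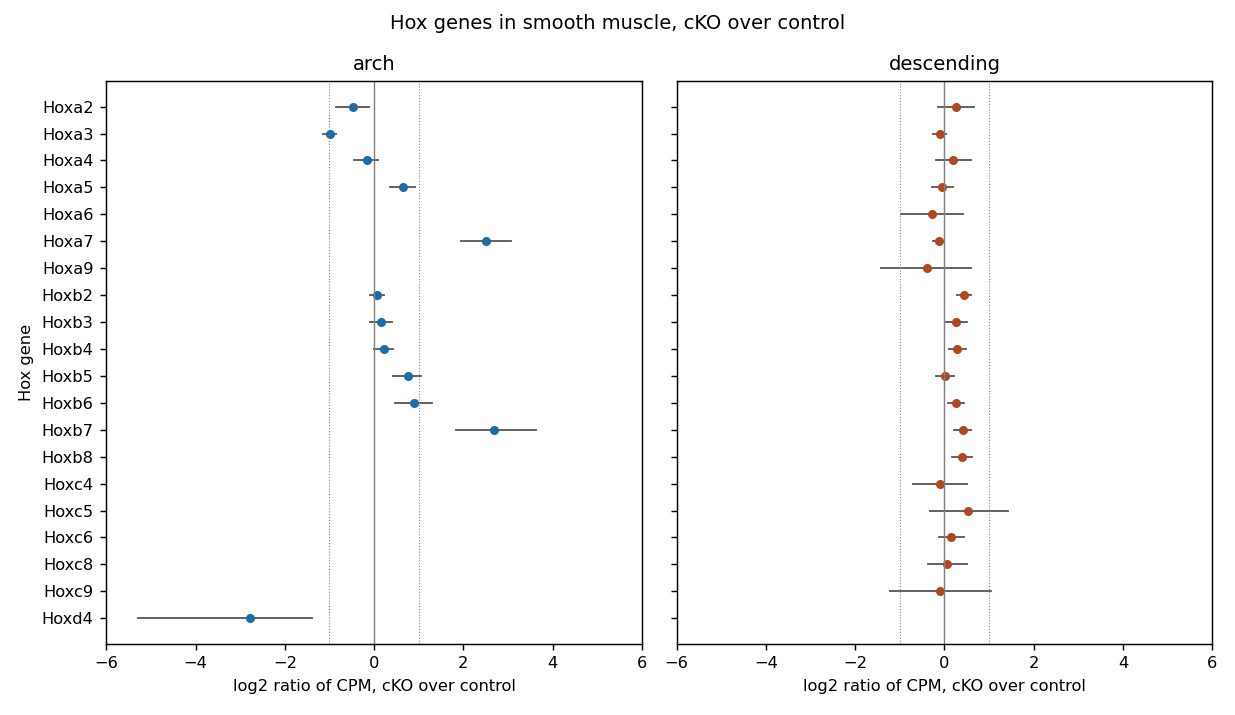
Log2 ratio of the level of 20 Hox genes with at least 20 UMIs in smooth muscle, cKO over control, for arch and for descending cells. Points are ratios, bars 95% counting intervals, and dotted lines mark 2-fold. All descending points lie within 2-fold, and Hoxa7, Hoxb7 and Hoxd4 lie outside it in the arch.

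The arch libraries differed more. In arch smooth muscle 3 of 13 members (23.1%) differed by 2-fold between cKO and control, against 14.6% of all genes. Hoxa7 was higher in the cKO arch, with a log2 ratio of 2.50 (1.95 to 3.06), as was Hoxb7, at 2.70 (1.83 to 3.63) on 29 and 19 UMIs, and Hoxd4 was lower, at -2.77 (-5.29 to -1.40) on 3 and 102 UMIs. Hoxa3 lay just inside 2-fold, at -0.996 (-1.13 to -0.86). The central sum had a log2 ratio of 0.44 (0.32 to 0.55), which ranged from 0.19 with cells of at least 1000 genes and under 5% mitochondrial UMIs to 0.98 with groups 5 to 8 alone.

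In arch fibroblasts 5 of 15 members (33.3%) differed by 2-fold between the genotypes, against 15.0% of all genes. Among them Hoxc4 and Hoxc5 were lower in the cKO arch (3 against 62 UMIs and 0 against 25), and Hoxa7 and Hoxd8 were higher, on 8 and 14 UMIs in the cKO arch. The interval of Hoxa7 (-0.20 to 2.65) includes 0. Markers of modulated mesenchymal cells summed to 23.9 per 10000 UMIs in the fibroblasts of the cKO arch and to 2.11 to 4.74 in those of the other libraries, and their part in these values was not tested. In arch endothelium 3 of 13 (23.1%) differed by 2-fold, against 13.1% of all genes in either direction. All 3 were higher in the cKO, Hoxa7 at 2.30 (1.47 to 3.14), Hoxb4 at 1.04 (0.39 to 1.63) and Hoxd8 at 1.01 (0.28 to 1.68). All genes carry a median shift of -0.14 in the arch smooth muscle comparison.

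Transcription factors of the heart and pharyngeal arches also differed between the arch libraries. Hand2, a factor of the pharyngeal arches and outflow tract, stood at 66.1 CPM in control arch and 60.8 CPM in cKO arch smooth muscle, but at 75.5 and 10.5 CPM in arch endothelium. Tbx20, a factor of heart and outflow tract, stood at 79.0 and 2.39 CPM in arch fibroblasts and at 48.8 and 3.50 CPM in arch endothelium, and Gata4 at 11.2 and 0 CPM in arch fibroblasts. The stretch of aorta in each arch library therefore cannot be told apart from genotype, sex and annotation in the arch comparison.

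Within the arch, the few smooth muscle cells with a Hoxa7 UMI had more of the other members of groups 5 to 9 than the cells without. In the cKO arch 40 such cells had 118 CPM (89.1 to 154) of the other members of groups 5 to 9, against 26.3 CPM (23.5 to 29.3) in the 1047 cells without, and 21.5 CPM (10.3 to 39.5) of Hand2 against 62.3 CPM (57.9 to 66.8). In the control arch 30 such cells had 65.8 CPM (45.5 to 91.9) against 16.3 CPM (15.2 to 17.4) in the other 3596, and 17.4 CPM (7.96 to 33.0) of Hand2 against 66.6 CPM (64.4 to 68.8). Hoxa3 stood at 40.8 CPM (24.6 to 63.8) in cells with and 38.3 CPM (34.9 to 41.9) in cells without a Hoxa7 UMI in the cKO arch, and at 67.7 CPM (47.2 to 94.1) and 76.7 CPM (74.4 to 79.0) in the control arch, intervals that overlap. For the members of groups 5 to 9, descending smooth muscle cells with and without a Hoxa7 UMI had 143 and 131 CPM in the control and 161 and 153 CPM in the cKO library. Cells with a Hoxa7 UMI were deeper, with medians of 11241 against 10767 UMIs in the cKO arch and 16522 against 14084 in the control arch, and the part of depth was not tested. The split was chosen after the values were seen.

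The cKO arch library also counts the reporter transcript. Smooth muscle cells of that library with at least 16 UMIs of it (351 cells) had 44.0 CPM of central Hox genes, and cells with under 8 (645 cells) 72.1 CPM, a log2 ratio of -0.71 (-0.97 to -0.46). Anterior genes stood at 81.4 and 90.8 CPM and Hand2 at 70.6 and 58.3 CPM. Both limits were chosen after the data had been seen, and cell depth enters a limit on UMIs, so the split is a description. Modulated mesenchymal cells, 302 in the cKO arch and at most 3 elsewhere, had an arch code, with 66.1 CPM of anterior and 46.9 CPM of central genes, Hoxa3 at 23.0, Hoxb2 at 22.5 and Hoxa7 at 0.512 CPM.

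The other 14 members had under 50 UMIs over the 4 classes and libraries together. Hoxa11, Hoxb13, Hoxc11, Hoxc12, Hoxd12 and Hoxd13 counted 0, although Hoxb13 had 3 UMIs in control descending leukocytes. The other 8 counted 1 to 36, led by Hoxd3 with 36, Hoxd10 with 20 and Hoxc10 with 13. Hoxd10 was found in descending endothelium (15 cKO and 5 control UMIs) and in lymphatic cells, at 13.7 to 30.3 CPM. Genes of groups 11 to 13 were thus at or near 0 throughout, which at this depth allows up to 0.0546 CPM in control arch smooth muscle for a gene with no count.

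Genes that work with or upstream of Hox proteins were taken from lists. Beside the counts below, the shares of all genes called lower and higher in the control arch were 5.28 and 4.27% in smooth muscle, 4.05 and 5.44% in fibroblasts, 5.78 and 6.30% in endothelium and 5.52 and 2.94% in mesothelium. All 9 cofactors of the Pbx, Meis and Pknox families, which bind DNA together with Hox proteins, were measured in smooth muscle, and 0 differed by 2-fold between control arch and descending cells in either direction. Meis2 stood at 62.7 and 46.6 CPM. In endothelium 3 of 8 were higher in the control arch, Meis2 at 104 against 40.5 CPM, Meis3 at 12.8 against 2.11 and Pknox2 at 12.0 against 3.62. Between cKO arch and cKO descending endothelium 0 of 7 cofactors were higher in the arch and 1 was lower, against 4.46 and 9.69% of all genes. Of 15 measured regulators of Hox genes, mostly Polycomb and Trithorax subunits that hold Hox genes silent or active, Gdf11 alone differed in control smooth muscle, with 0.837 CPM in the arch and 4.16 CPM in the descending aorta. Kmt2a (90.8 and 101 CPM) and Ezh2 (7.44 and 5.81 CPM) did not reach 2-fold. Cdx1, Cdx2 and Cdx4 counted 0 UMIs in the 4 classes of both control libraries. No cofactor was called in control fibroblasts or mesothelium (0 of 9 in each), and no regulator in control fibroblasts, endothelium or mesothelium (0 of 15, 14 and 14).

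Of the factors of the arch and outflow tract, those at least 2-fold higher in the control arch than in the control descending aorta were 4 of 7 in smooth muscle, 6 of 7 in fibroblasts, 4 of 6 in endothelium and 1 of 5 in mesothelium. Tbx2 in smooth muscle was the only one called lower in the control comparisons, at 12.2 against 42.0 CPM. Between cKO arch and cKO descending aorta, 2 of 5 were higher and 2 lower in smooth muscle. In fibroblasts 1 of 4 was higher and 0 lower, and in endothelium 0 of 3 were higher and 2 lower. The shares of all genes called higher and lower there were 4.56 and 9.01%, 6.60 and 9.41%, and 4.46 and 9.69% in the same order.

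Retinoic acid is the signal that opens the anterior Hox genes in the embryo. Of the genes of its pathway, in control smooth muscle 1 of 8 was called, Aldh1a1, at 3.20 CPM in the arch and 0.795 CPM in the descending aorta. In control fibroblasts 5 of 9 were called, 2 lower and 3 higher in the arch, and the difference between classes was not tested. The synthetic enzyme Aldh1a2 stood at 48.5 CPM in the arch and 2.82 CPM in the descending aorta, Aldh1a1 at 90.7 and 26.9 CPM, and Aldh1a3 at 46.6 and 189 CPM, while the degrading enzymes Cyp26b1 and Cyp26a1 stood at 10.2 and 27.7 CPM and at 10.0 and 0 CPM. In control endothelium Cyp26b1 was 16.4 CPM in the arch and 82.7 CPM in the descending aorta. Non-coding genes of the clusters, of which 4 were measured in smooth muscle, gave 1 call, Hoxb5os, with 1.33 CPM in the arch and 7.22 CPM in the descending aorta, while Hotairm1 at the edge of Hoxa stood at 63.2 and 65.8 CPM. Halr1, a non-coding transcript, stood at 1.96 and 26.9 CPM in control arch and descending endothelium. In control mesothelium Rarb (5.27 against 27.1 CPM) and Cyp26a1 (2 against 21 UMIs) were lower in the arch. The non-coding genes gave 1 lower of 4 in control fibroblasts, 3 lower of 5 in control endothelium and 3 higher of 4 in control mesothelium. Retinoic acid genes gave 2 lower and 1 higher of 8 in control endothelium.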

How the data were processed

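Single-cell libraries were made from 4 groups, 1 library each. The deposited matrices hold raw UMI counts for barcodes that the authors called as cells with Cell Ranger on mm10, version 6.1.2 per the file headers and 6.1.1 per the submitters' processing notes. From there, cells with at least 500 genes and under 10% mitochondrial UMIs were kept, and the highest Scrublet scores were removed as doublets, 0.8% per 1000 cells, since the automatic threshold of that caller marked 0.0342 and 0.0576% of cells in a pair of libraries. This removed 217 to 598 cells and left 4989 to 8046 a library. Libraries held 49407811 to 98866674 UMIs.

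Gates asked, per 10000 UMIs, for 200 of smooth muscle, 100 of fibroblast and 30 of endothelial or mesothelial markers, with at least 7, 7, 5 and 5 of 10 markers detected. Their thresholds were set after the marker distributions were seen. UMIs were summed per gate and library and divided by the total over shared genes (CPM). Log2 ratios used a prior of 0.5 UMI, and intervals are exact conditional ones for counting error alone. A call is at least 2-fold, for genes with 20 UMIs or more when both libraries are added. Members with at least 50 UMIs over the 4 classes are named, and others are named by their counts or where they were singled out after their values were seen. Single values of 2 genes are not reported here. The calling step was tested on simulated counts. Members and gene lists were chosen with earlier results of these data known. Alternatives covered gates, filters, doublets, thinning, scaling, free RNA, thresholds and the groups called central. Python 3.11.15, numpy 2.4.6, scipy 1.17.1, pandas 2.3.3, scanpy 1.11.5 and matplotlib 3.10.9 were used.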

Additional observations from a re-analysis of the deposited data

Results flagged for a closer look

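Hoxd4 stood out because its difference along the control aorta had opposite signs in different classes. The log2 ratio of control arch over control descending was 5.93 in smooth muscle, where the descending library counted 0 UMIs and the value therefore depends on the prior, and 3.35 in fibroblasts, against -2.01 in endothelium. With 1 library a group the difference between the classes was not tested.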

How the results depend on the processing

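No paired analysis was possible because each group has 1 library, and for the same reason no replicate could be left out. Over the 13 main results, 84 of 98 alternative values stayed within the counting interval or, for the count of calls, within 1.5 times. A further 14 moved beyond it and 0 were marked as reversed. That mark leaves out changes of sign close to 0. The central log2 ratio of cKO over control descending cells was -0.02 in endothelium and 0.06 with thinned cells. In mesothelium it was -0.01, and 0.01 with median-of-ratios scaling. With groups 5 to 8 taken as central, the log2 ratio of arch over descending was -3.51 in control smooth muscle, -3.02 in control fibroblasts, -2.06 in control endothelium, -2.63 in cKO smooth muscle and -3.09 in cKO fibroblasts. Median-of-ratios scaling gave -2.23 in control and -1.83 in cKO smooth muscle, cells thinned to 3000 UMIs gave -2.31 in control fibroblasts, and cells with at least 1000 genes and under 5% mitochondrial UMIs gave -2.25 in cKO smooth muscle. In arch smooth muscle, cKO over control, the central log2 ratio was 0.59 with gates at 2 times the threshold, 0.19 with the stricter cell filter, 0.57 with median-of-ratios scaling and 0.98 with groups 5 to 8. The count of member calls was 90 and became 119 at 1.5-fold and 166 with no minimum of UMIs. Of 1673 values for single genes and groups, 69 moved and 1 was marked as reversed: Hoxa6 in endothelium, cKO arch over cKO descending, was 0.0491 with thinned cells against -1.28. The causes were not tested. In the cKO arch, 136 endothelial and 5 mesothelial cells limit what can be seen.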
